A study of Mus musculus with 4 samples.

Results

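S100 proteins are small calcium-binding proteins of the EF-hand type, most of which work as dimers that expose a binding surface for other proteins when calcium rises. *S100a8* and *S100a9* encode the subunits of calprotectin, which fills the cytosol of neutrophils and is also made by monocytes, binds zinc and manganese, and acts as an alarmin on Toll-like receptor 4 and RAGE once it leaves the cell. Both are widely used as markers of myeloid-derived suppressor cells (MDSCs), immature myeloid cells that restrain T cells. The family members described here are 8 genes, given by name: *S100a8*, *S100a9*, *S100a4*, *S100a6*, *S100a10*, *S100a11*, *S100a1* and *S100a13*. All 8 were found among the 24346 genes of the deposited tables.

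The study asked how granulocyte colony-stimulating factor (G-CSF) alters MDSCs that arise in culture. BM cells from female C57BL/6J mice aged 6 to 8 weeks were kept for 4 days with 40 ng/ml GM-CSF, either without further cytokine (Control) or with G-CSF as well, at 5 ng/ml (G-CSF), so that every culture received GM-CSF. Each group had 2 libraries of stranded mRNA, described as biological replicates, and no cell sorting is stated for them. Whether the replicates came from separate mice is not stated, so the p-values measure the spread between these cultures. The values are FPKM, in which the fragments of a gene are divided by the length of its transcripts and by the mapped fragments of the library, and from the steps between their lowest values the libraries held about 13.4 and 14.15 M mapped reads in Control, and 12.45 and 15.6 M in G-CSF. Fold changes are on the log2(FPKM + 0.1) scale and compare G-CSF with Control. A gene passed at an adjusted p under 0.05 in limma, with Benjamini-Hochberg adjustment over all 11706 genes tested.

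In the presence of G-CSF, most of the S100 genes were expressed at lower levels. Of the 8 genes, all of which were abundant enough to be tested, 6 passed the test with lower expression (*S100a9*, *S100a6*, *S100a11*, *S100a4*, *S100a1* and *S100a10*) and 0 with higher expression (limma). Among all genes tested, 11.9% passed with lower and 13.1% with higher expression, 25.0% in all. All 8 log2 fold changes were below 0, as were 49.6% of those of all genes tested. In 7 of the 8 genes both G-CSF libraries lay below both Control libraries, which was so for 32.5% of all genes tested (66.5% did not overlap in either direction). The differences were modest: the median log2 fold change of the 8 genes was -0.34, against 0.00 over all genes tested, and 0 of the 8 changed by more than 2-fold, a size that 1.37% of all genes reached together with an adjusted p under 0.05 (0.487% higher and 0.88% lower). At an unadjusted p under 0.05, 7 of the 8 genes were lower and 0 higher, against 19.1% and 20.5% of all genes tested, and limma voom on estimated reads also gave 0 higher. The number of S100 genes that passed with lower expression moved with the libraries in the test: it was 4 without Control replicate 1, 5 without Control replicate 2 (with *S100a8* among them), 2 without G-CSF replicate 1 and 2 without G-CSF replicate 2. With low values kept in the test it was 1. The log2 fold changes of all 8 genes stayed below 0 in each of these fits. In bulk cultures, fewer cells that express a gene and less RNA of that gene per cell cannot be told apart.

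**Figure D1:**
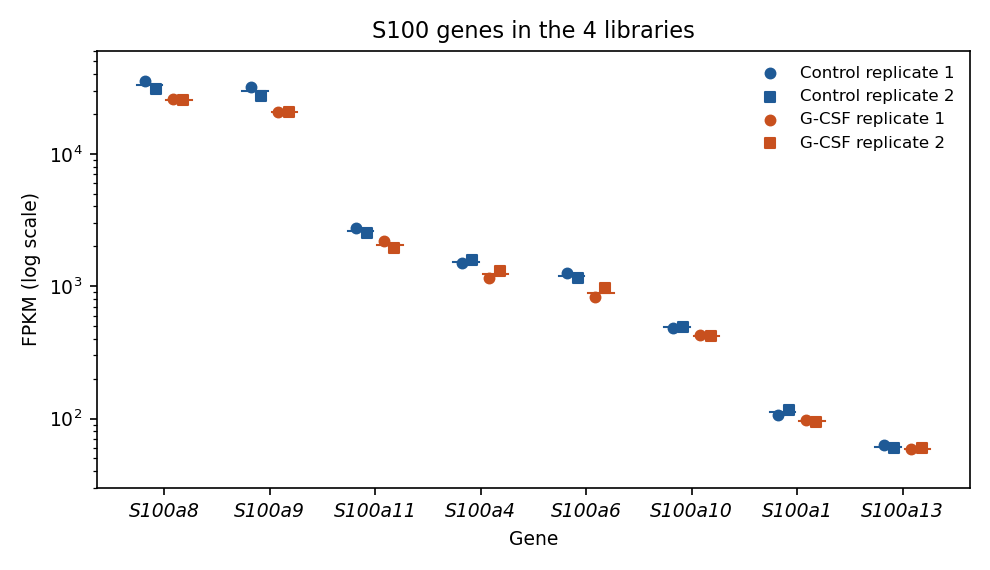
FPKM of the 8 S100 genes in each of the 4 libraries on a log axis, with circles for replicate 1, squares for replicate 2 and a line at the mean of each group (n = 2). Levels spanned 539.1-fold in Control between *S100a8* and *S100a13*, and the G-CSF libraries lay below the Control libraries in every gene but *S100a13*.

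The calprotectin subunits were the most abundant transcripts of these cells. *S100a8* ranked first and *S100a9* next in FPKM in all 4 libraries. *S100a8* measured 35613 and 30633 FPKM in Control replicates 1 and 2, and 25812 and 25565 FPKM in G-CSF replicates 1 and 2. Both G-CSF libraries lay below both Control libraries and close to each other, while the Control libraries differed more between themselves. The mean of *S100a8* with G-CSF was 77.6% of that in Control, a log2 fold change of -0.36 (95% interval -0.66 to -0.07), and it did not pass the test (adjusted p = 0.0726, limma).

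*S100a9* measured 31959 and 27310 FPKM in Control, against 20506 and 20521 FPKM in G-CSF. The groups did not overlap, Control replicate 1 was again the highest library, and the G-CSF libraries were nearly equal. The largest difference among the 8 genes was in *S100a9*, except without G-CSF replicate 2 (log2 fold change -0.54 for *S100a6* and -0.53 for *S100a9*). With all libraries, *S100a9* fell to 69.2% of the Control mean, a log2 fold change of -0.53 (95% interval -0.81 to -0.24, adjusted p = 0.0233, limma). It no longer passed without Control replicate 1 (adjusted p = 0.0504), without G-CSF replicate 1 (0.125) or without G-CSF replicate 2 (0.118), nor when genes with low values were kept in the test (0.167). For *S100a8*, the call went the other way in some settings: without Control replicate 2 it passed with an adjusted p of 0.0337, and it passed in 5 of 10 other settings with an adjusted p that ranged from 0.00986 to 0.342 (limma).

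Within a library, the ratio of the subunits does not depend on how libraries are scaled. The ratio of *S100a9* to *S100a8* in FPKM was 0.897 and 0.892 in the Control libraries and 0.794 and 0.803 in those with G-CSF. The G-CSF ratios were lower than both Control ratios by far more than the replicates differed. An exact permutation test of the log2 ratio gave p = 0.333 (two-sided, n = 2 per group), which is the smallest p that 2 against 2 libraries can give, so the test could not pass at this size.

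Together, *S100a8* and *S100a9* took 10.1% and 9.03% of all FPKM in Control, against 7.21% and 7.15% in G-CSF (exact permutation p = 0.333, n = 2 per group). Their transcripts are short, and FPKM divides by length. Of the estimated reads, they therefore held a smaller part, 1.96% and 1.68% without G-CSF and 1.34% and 1.33% when it was present. On both scales the share was lower in both G-CSF libraries. The FPKM of all other genes summed to 602782 and 583668 in Control, against 596059 and 598854 in G-CSF, sums that overlapped between the groups.

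Of the remaining members, *S100a11* was the most abundant. It encodes a partner of annexin A1 that takes part in membrane repair. *S100a11* measured 2743 and 2513 FPKM in the Control libraries and 2182 and 1941 FPKM in those with G-CSF, with no overlap between the groups. It fell to 78.5% of the Control mean (log2 fold change -0.35, 95% interval -0.54 to -0.16, adjusted p = 0.0232, limma). The call was lost without Control replicate 1 (adjusted p = 0.0638), without G-CSF replicate 2 (0.102) and with low values kept in the test (0.0843). Of the 75-base windows of *S100a11* transcripts, 37.8% also occur in the pseudogenes *Gm12854* or *Gm7665*, so part of its reads cannot be placed uniquely.

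*S100a4* encodes a protein that binds non-muscle myosin and is known for its role in cell motility. It measured 1504 and 1565 FPKM without G-CSF and 1156 and 1295 FPKM when it was present. Both G-CSF libraries were lower, and they differed from each other more than the Control libraries did. *S100a4* fell to 79.8% of the Control mean (log2 fold change -0.33, 95% interval -0.49 to -0.16, adjusted p = 0.0185, limma). It did not pass without G-CSF replicate 1 (adjusted p = 0.0814) or with low values kept in the test (0.0661). The gene model *Gm42674* overlaps it on the same strand and holds 44.8% of its 75-base windows, and reads from these cannot be told apart.

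*S100a6* encodes calcyclin, named for its link to the cell cycle. It measured 1249 and 1156 FPKM in Control, against 824 and 964 FPKM in G-CSF, again without overlap. *S100a6* fell to 74.3% of the Control mean (log2 fold change -0.43, 95% interval -0.63 to -0.23, adjusted p = 0.0147, limma). It had the smallest p of the 8 genes and passed with each of the 4 libraries left out in turn, where the adjusted p reached 0.043 at most. With low values kept in the test its adjusted p was 0.0584.

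*S100a10* encodes the light chain that joins annexin A2 into a tetramer, and is unusual in the family because its calcium-binding loops do not bind calcium. It measured 485 and 492 FPKM in the Control libraries and 425 and 417 FPKM in those with G-CSF. The replicates lay close together in both groups and the groups were apart. *S100a10* fell to 86.2% of the Control mean (log2 fold change -0.21, 95% interval -0.32 to -0.11, adjusted p = 0.0159, limma). It passed in all 10 other settings, and with a library left out it lost the call without Control replicate 2 (adjusted p = 0.0544), without G-CSF replicate 1 (0.0521) and without G-CSF replicate 2 (0.0674).

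*S100a1*, best known from heart and skeletal muscle, measured 107 and 115 FPKM without G-CSF and 97.7 and 93.9 FPKM when it was present. The groups did not overlap, but the nearest libraries lay about as far apart as the Control replicates. It fell to 86.1% of the Control mean (log2 fold change -0.22, 95% interval -0.34 to -0.09, adjusted p = 0.0286, limma). The call was lost without Control replicate 2 (adjusted p = 0.116), without G-CSF replicate 1 (0.0527) and without G-CSF replicate 2 (0.0996). It was also lost when FPKM were divided by their sum (0.0697), with voom (0.0698) and with low values kept in the test (0.0669).

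*S100a13*, which takes part in the release of interleukin 1 alpha and other proteins without a signal peptide, was the exception. It measured 62.8 and 60.1 FPKM in Control, against 58.6 and 60.1 FPKM in G-CSF. The groups overlapped, and the log2 fold change was -0.05 (95% interval -0.17 to 0.07, adjusted p = 0.482, limma). A p that misses the threshold does not show that the level was the same, and the interval reaches from a small decrease to a small increase.

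The order of the 8 genes by mean FPKM was *S100a8*, *S100a9*, *S100a11*, *S100a4*, *S100a6*, *S100a10*, *S100a1* and *S100a13* in both groups. Of the neighbours in this order, *S100a8* and *S100a9* overlapped in Control, where the lower *S100a8* library lay below the higher *S100a9* library, and did not overlap with G-CSF. All other neighbours were separated in both groups. The 6 genes other than *S100a8* and *S100a9* summed to 6151 and 5901 FPKM in the Control libraries and 4743 and 4771 FPKM in those with G-CSF. Estimated reads behind a value ran from 368 for *S100a13* to 131712 for *S100a8*.

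The rest of the family was nearly silent in these cells. The other 9 S100 genes of the tables, *S100a2*, *S100a3*, *S100a5*, *S100a7a*, *S100a14*, *S100a16*, *S100b*, *S100g* and *S100z*, stayed below 3 FPKM in every library, and 0 of them had enough estimated reads to be tested with limma or voom. *S100a5* was the highest, with 2.33 and 2.83 FPKM without G-CSF and 1.79 and 2.29 FPKM when it was present. *S100a16*, *S100g* and *S100z* were listed at 0 in all 4 libraries.

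All 8 expressed genes lie on chromosome 3 (GRCm38, GENCODE M21 gene models), in a pair of blocks. The first block holds 6 of them within 184688 bases, from *S100a1* (chr3:90511034-90514392, minus strand) and *S100a13* (chr3:90514435-90524581, plus strand) through *S100a4* (chr3:90603771-90606045) and *S100a6* (chr3:90612882-90624181) to *S100a8* (chr3:90668978-90670035), these 3 on the plus strand, and *S100a9* (chr3:90692632-90695721, minus strand). The second block, 2824766 bases further on, holds *S100a11* (chr3:93520488-93526287) and *S100a10* (chr3:93555080-93564643), both on the plus strand. *S100a1* and *S100a13* point away from each other with 42 bases between them, and of this pair *S100a1* passed the test and *S100a13* did not; the difference between their fold changes was not tested. *S100a8* and *S100a9*, 22596 bases apart, point toward each other. Position did not separate expressed from silent genes, since *S100a2*, *S100a3*, *S100a5*, *S100a7a*, *S100a14* and *S100a16* lie between members of the first block.

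**Figure D2:**
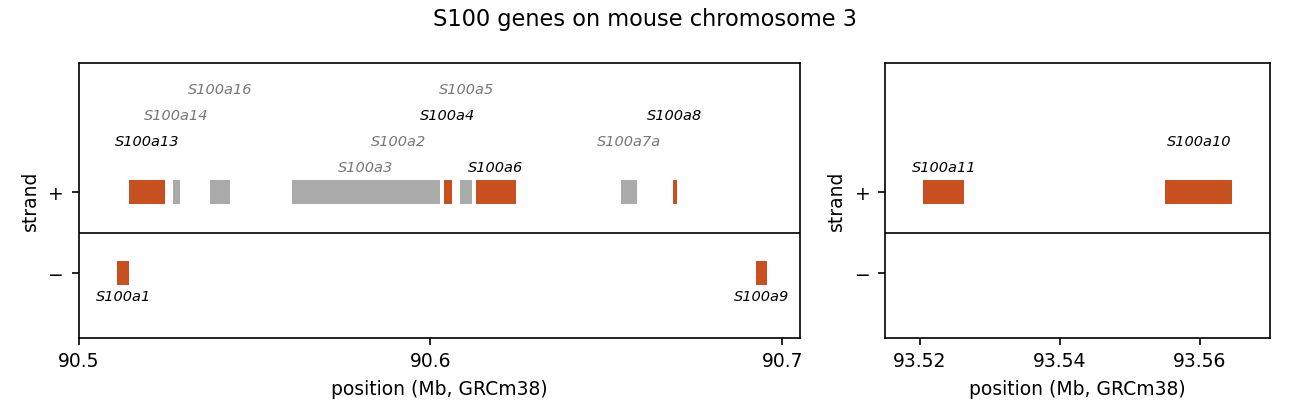
Map of the S100 genes in the pair of blocks on mouse chromosome 3, drawn to scale within each panel, with position in Mb (GRCm38) on the horizontal axis and strand on the vertical axis. Orange bars are the expressed genes, 6 in the first block and 2 in the second, and grey bars are S100 genes that stayed below 3 FPKM.

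Since most of these genes were lower together, the sequences around their starts were compared. RefSeq promoters (GRCm38.p6, 250 bases before to 50 after the annotated start) were matched for 7 of the 8 genes, all but *S100a10*, and set beside the same window of 32851 promoters. The TATA box TATAAA occurred on the gene's own strand in 3 of the 7, *S100a4*, *S100a8* and *S100a9*, and in 8.32% of all promoters on that strand (13.6% on either strand). It began 31 bases before the start in *S100a4* and 30 bases before it in *S100a8*, and in *S100a9* at base 1 of the annotated transcript. These starts are those of RefSeq and can differ from the GENCODE gene models above. The models of *S100a8* and *S100a1*, among others, begin upstream of the RefSeq start. The TATA box of *S100a8* therefore lies inside its gene model. The STAT motif TTCNNNGAA, searched on both strands as were the others, occurred in 0 of the 7 windows and in 8.3% of all promoters, which says only that these letters are not in these windows. The C/EBP motif TTGCNNAA occurred in 1 (*S100a9*, 236 bases before the start; 10.8% of all promoters) and the PU.1 motif GAGGAAG in 2 (*S100a4*, from base 19 after the start, and *S100a8*, 171 bases before it, both on the opposite strand; 13.6%). The AP-1 motif TGANTCA occurred in *S100a11* alone, 136 and 38 bases before the start (7.81%). No motif overlapped another in these windows. The windows of *S100a1* and *S100a13* share 204 bases (chr3:90514281-90514484), read in opposite directions.

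Capitals mark the matches that lie wholly within the bases printed, so the PU.1 match of *S100a4*, which runs past them, is in lower case. *S100a11* is included for the AP-1 motif near its start. The stretches, from 100 bases before to 20 bases after the RefSeq start, are shown for *S100a11* and for the members with a TATA box. They are *S100a8* (chr3:90668971-90669090, plus strand), *S100a9* (chr3:90695702-90695821, minus strand), *S100a4* (chr3:90603670-90603789, plus strand) and *S100a11* (chr3:93520396-93520515, plus strand), each written 5′ to 3′ on the strand of the gene.
S100a8: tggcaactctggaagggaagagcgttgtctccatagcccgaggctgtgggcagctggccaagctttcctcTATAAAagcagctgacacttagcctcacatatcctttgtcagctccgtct
S100a9: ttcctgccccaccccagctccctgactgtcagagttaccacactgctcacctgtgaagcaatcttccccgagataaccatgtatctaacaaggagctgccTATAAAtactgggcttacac
S100a4: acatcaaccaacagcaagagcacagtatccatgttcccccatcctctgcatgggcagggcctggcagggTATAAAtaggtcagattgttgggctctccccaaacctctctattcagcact
S100a11: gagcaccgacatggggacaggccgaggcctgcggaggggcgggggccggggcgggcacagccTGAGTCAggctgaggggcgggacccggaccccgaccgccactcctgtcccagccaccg

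Proteins that bind or sense S100 proteins were examined as a list of 18 genes, a selection that does not hold every such protein. All 18 were tested, of which 6 passed with lower and 1 with higher expression (limma), with a median log2 fold change of -0.14. Over all genes tested these shares were 11.9% and 13.1%. *Anxa1*, the annexin that S100a11 binds, measured 607 and 629 FPKM in Control, against 465 and 476 FPKM in G-CSF (log2 fold change -0.39, adjusted p = 0.00437, limma), lower in both G-CSF libraries as *S100a11* was. *Cacybp*, whose product binds calcyclin, went the opposite way to *S100a6*: it rose from 49.0 and 51.2 FPKM in Control to 67.0 and 66.6 FPKM with G-CSF (log2 fold change 0.41, adjusted p = 0.00415, limma).

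Calprotectin carries arachidonic acid to the NADPH oxidase of phagocytes. *Cyba*, which encodes a membrane subunit of this oxidase, measured 1085 FPKM in both Control libraries and 833 and 913 FPKM in G-CSF (log2 fold change -0.32, adjusted p = 0.0134, limma). Both G-CSF libraries lay below both Control libraries, as for *S100a9*. *Ahnak*, a very large scaffold protein that binds S100a10 joined to annexin A2, measured 36.0 and 37.2 FPKM in Control, against 29.8 and 31.8 FPKM in G-CSF (log2 fold change -0.25, adjusted p = 0.0234, limma), and here too the groups did not overlap. The largest decrease among the partners that passed was that of *Alcam*, an adhesion molecule reported to bind calprotectin (33.2 and 34.0 FPKM in Control, 23.4 and 23.97 FPKM in G-CSF, log2 fold change -0.50, adjusted p = 0.00349, limma). Unlike *Alcam*, the genes of Toll-like receptor 4 and RAGE did not pass. *Tlr4* measured 45.2 and 49.4 FPKM in the Control libraries and 40.1 and 42.7 FPKM in those with G-CSF (adjusted p = 0.068, limma). *Ager*, which encodes RAGE, stayed between 1.31 and 1.57 FPKM in all 4 libraries. With low values kept in the test, or without G-CSF replicate 1, 3 partners passed with lower expression. *Tlr4* and *Ager* are given for their role and were named after their values were seen.

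Cytokine receptors and transcription factors that act on S100 genes in myeloid cells formed a list of 12, all tested. Of these, 4 passed with lower expression (*Csf2ra*, *Csf3r*, *Cebpb* and *Cebpd*) and 1 with higher (*Hif1a*), against 11.9% and 13.1% of all genes tested, with a median log2 fold change of -0.16. *Csf3r*, the receptor for G-CSF, measured 50.2 and 48.3 FPKM without G-CSF and 34.6 and 40.3 FPKM when it was present (log2 fold change -0.40, adjusted p = 0.015, limma). *Csf2ra*, the alpha chain of the GM-CSF receptor, measured 137 and 136 FPKM in Control, against 96.9 and 103 FPKM in G-CSF (log2 fold change -0.45, adjusted p = 0.00333, limma). Both receptor genes fell by a factor close to that of *S100a6*. *Cebpb* and *Cebpd*, which encode C/EBP factors that bind promoters of myeloid genes, had log2 fold changes of -0.30 and -0.29 (adjusted p = 0.0232 and 0.0395, limma). *Hif1a*, the oxygen-regulated factor, measured 47.6 and 48.1 FPKM in the Control libraries and 55.3 and 52.8 FPKM in those with G-CSF (log2 fold change 0.18, adjusted p = 0.0418, limma), and did not pass with upper-quartile scaling or with low values kept in the test, nor without Control replicate 2, G-CSF replicate 1 or G-CSF replicate 2 (limma). The number of upstream genes that passed with lower expression was 2 without Control replicate 1 or without G-CSF replicate 1, and 1 with low values kept in the test.

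**Figure D3:**
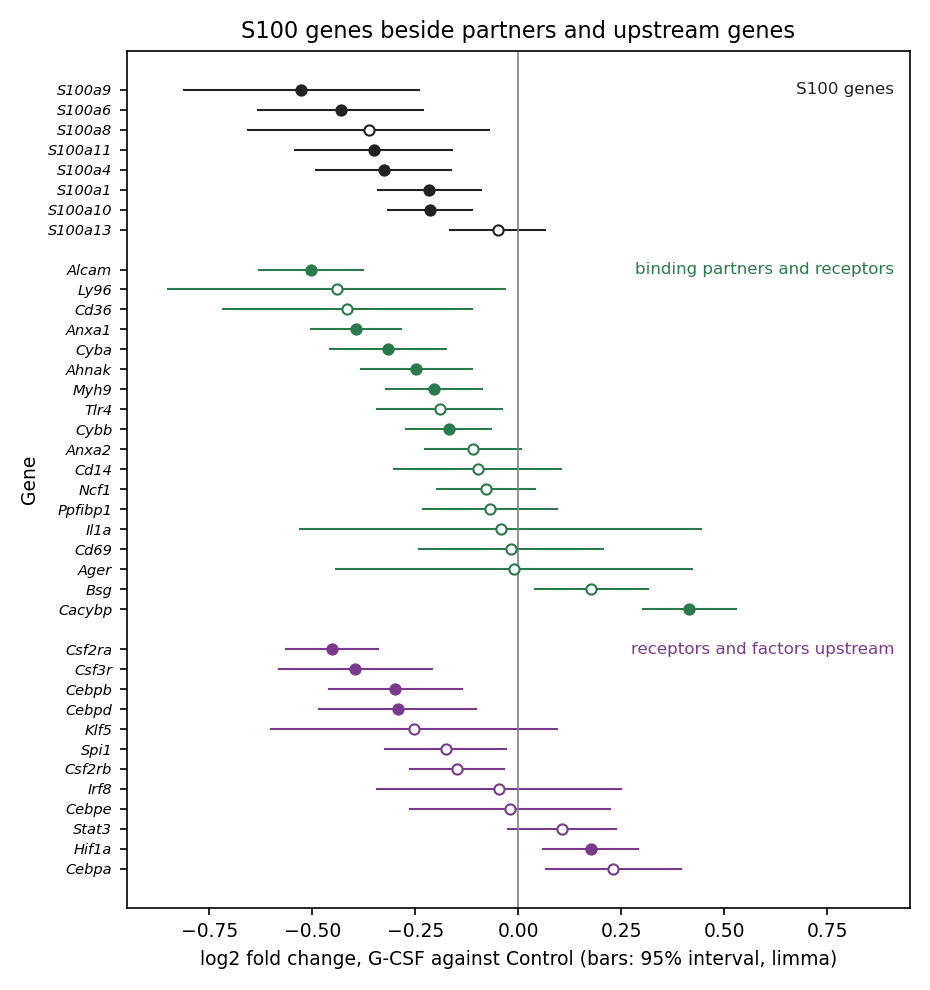
Log2 fold change between G-CSF and Control for the 8 S100 genes, 18 partners and 12 upstream receptors and factors, with 95% intervals from limma (2 libraries per group). Filled points passed at an adjusted p under 0.05. All 8 S100 genes lie left of 0, from *S100a9* at -0.53 to *S100a13* at -0.05.

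Markers of the cell types that the cultures could hold moved beside the S100 genes, and their part in the lower S100 levels was not tested. Of 10 matched neutrophil genes, all tested, 8 fell (limma), as did 11.9% of all genes tested, and the list summed to 16899 and 16976 FPKM without G-CSF and 10613 and 11945 FPKM when it was present. Its most abundant gene over the 4 libraries, *Ngp*, a protein of neutrophil granules that *Chil3* exceeded in Control replicate 2 and G-CSF replicate 2, measured 5434 and 4487 FPKM in Control, against 3398 and 3361 FPKM in G-CSF, and *Camp*, an antimicrobial peptide of secondary granules, fell by 1.81 on the log2 scale (adjusted p = 0.00037, limma). All 5 promyelocyte genes rose, against 13.1% of all genes tested, and their sum went from 965 and 838 FPKM to 2246 and 2111 FPKM, with *Prtn3* the most abundant over the 4 libraries (*Elane* in both Control libraries) and *Mpo* the smallest in p (log2 fold change 1.52). The fold change of *S100a9* (-0.53 on the log2 scale) was close to that of *Ngp* (-0.55).

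Against 11.9% of all genes tested, 7 of 11 monocyte and macrophage genes fell (limma), with sums of 1934 and 2004 FPKM in the Control libraries and 1718 and 1800 FPKM in those with G-CSF, most of it *Ly6c2*. On the same test, 5 of 8 dendritic cell genes fell, with sums of 3215 and 2752 FPKM against 1797 and 1445 FPKM. *Cd74* was the most abundant of these and *H2-Ab1* had the smallest p (log2 fold change -1.09). Eosinophil genes (2 of 3 tested fell, most abundant *Prg2*) summed to 261 and 338 FPKM without G-CSF and 208 and 162 FPKM when it was present, and mast cell and basophil genes (3 of 4 fell, most abundant *Mcpt8*) to 79.1 and 79.2 FPKM against 51.1 and 55.5 FPKM. These sums are far below the level of *S100a8* or *S100a9* in any library.

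Genes of other lineages were low. Erythroid genes, of which *Hba-a1* was the most abundant, reached a sum of 1.49 FPKM at most, and T, B and NK cell genes, led by *Nkg7*, a sum of 9.96 to 17.5 FPKM (1 of 3 tested fell, against 11.9% of all genes tested). The submitters' label names liver in its extraction text, whereas the study describes cultured cells. The hepatocyte genes *Alb*, *Apoa1*, *Ttr* and *Fgb* were listed at 0 in all 4 libraries, and *Serpina1a* reached 0.169 FPKM at most. Of 5 matched MDSC genes, 3 fell (*Itgam*, *Cd33* and *Ptprc*), against 11.9% of all genes tested, and the list summed to 1927 and 1969 FPKM in Control, against 1608 and 1705 FPKM in G-CSF, most of it *Ly6c2*.

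*Itgam* encodes CD11b, the surface marker by which myeloid cells of both MDSC kinds are gated, and it measured 520 and 515 FPKM in the Control libraries and 395 and 416 FPKM in those with G-CSF (log2 fold change -0.35, adjusted p = 0.00522, limma). Ratios to *Itgam* and to granule genes were therefore formed within each library, a choice made after the values were seen and described without a test. The ratio of *S100a8* to *Itgam* was 68.5 and 59.4 without G-CSF and 65.3 and 61.5 when it was present, so that the groups overlapped. The ratio of *S100a9* to *Itgam* was 61.5 and 53.0 in Control, against 51.9 and 49.4 in G-CSF, lower in both G-CSF libraries by less than the Control libraries differed. Across the 8 genes the ratio to *Itgam* overlapped between the groups in 4 (*S100a8*, *S100a4*, *S100a6* and *S100a11*), was lower with G-CSF in 1 (*S100a9*) and higher in 3 (*S100a10*, *S100a1* and *S100a13*). Of all other genes tested, 5.5% had a lower and 76.8% a higher ratio to *Itgam* in both G-CSF libraries than in both Control libraries, as division by a gene that itself fell raises the ratio of every gene alike.

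Against granule genes, *S100a9* kept a steady ratio to *Ngp*, with 5.88 and 6.09 in the Control libraries and 6.04 and 6.10 in those with G-CSF. The ratio of *S100a8* to *Ngp* was 6.55 and 6.83 in Control, against 7.60 and 7.61 in G-CSF, higher in both G-CSF libraries. The ratio of *S100a9* to *Camp* was 39.1 and 36.1 without G-CSF and 82.6 and 102 when it was present, and its ratio to *Mpo* was 216 and 206 in Control, against 51.4 and 50.8 in G-CSF. In both G-CSF libraries the ratio of *S100a9* to *Camp* was higher, and that to *Mpo* lower, than in both Control libraries. *Camp* and *Ngp* themselves fell (log2 fold changes -1.81 and -0.55) and *Mpo* rose (1.52). Division by such a gene shifts the ratio of every gene alike. The ratios to these 3 genes were not set against those of all genes tested.

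The genes most like the calprotectin subunits were sought among 6555 genes with a mean of at least 10 FPKM, by the root mean square difference of log2 values centred on their mean over the 4 libraries. *S100a9* also had the largest fold change of the 8 genes with all 4 libraries in the fit. Its nearest genes were *Ngp* (0.02), *H2-T23* (0.02), *Sept1* (0.03), *Batf3* (0.03) and *Cd177* (0.03). For *S100a8* they were *Mical1* (0.02), *Smim14* (0.02), *Ahcyl2* (0.02), *Ndfip1* (0.03) and *Socs2* (0.03). The calprotectin subunits were not each other's nearest genes: *S100a8* came at rank 105 for *S100a9*, and *S100a9* at rank 283 for *S100a8*, with a difference of 0.08 between them. Of the other members, *S100a11* was nearest to *S100a8*, at rank 127. With 4 libraries in 2 groups, such likeness rests both on the difference between the groups and on the differences between replicates. *S100a4* had a log2 fold change near that of *S100a8* (-0.33 and -0.36). It nevertheless came at rank 843 for *S100a8*, with a difference of 0.12.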

How the data were processed

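RNA-seq was performed on 2 Control and 2 G-CSF cultures of *in vitro* MDSCs (75-base single-end reads, TruSeq stranded mRNA kit), grouped by the samples' labels. The authors deposited 1 table of values per library, taken here as FPKM. This unit was inferred: the values are not whole, and 62.2% to 65.1% of the low values fell within 0.05 reads of whole reads once scaled by length, against 10% by chance. The submitters' processing notes name TopHat2 2.0.13, Bowtie2 2.2.3, SAMtools 0.1.19, Cufflinks 2.2.1 and mm10, without their roles; the annotation is not given in the sources used here.

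Reads per gene were estimated from FPKM, the median length of protein-coding transcripts (GENCODE M21, 23961 of 24346 genes matched) less 210 bases, and the depth. The test took genes that reached 10 such reads in 2 libraries and 15 over all libraries, without those that have no transcript above 200 bases. The groups were compared on log2(FPKM + 0.1) in limma 3.58.1 (lmFit, eBayes with trend, two-sided; R 4.3.3), with Benjamini-Hochberg adjustment over all genes tested and no replicate block. A stricter call added a fold change over 2. The steps were tested on simulated libraries with known changes. FPKM are relative to the mapped reads of a library and give no amount per cell.

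The genes named are the S100 genes, at most 5 partners and 5 upstream genes by smallest p, the most abundant gene of each marker list and, where it passed the stricter call, the gene with the smallest p, and the 5 nearest genes for likeness; other genes, such as single members of the marker lists and genes beside the S100 blocks, were named after their values were seen. The members and lists were chosen with earlier results of these data known. A gene of the partner list is not reported here, and the list was counted again without it. Alternatives were other pseudocounts, filters and scalings, voom, the replicate block, the stricter call and each library left out. Promoters came from RefSeq. Tables and figures were made with pandas 2.3.3, numpy 2.4.6, scipy 1.17.1 and matplotlib 3.10.9 under python 3.11.15.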

Additional observations from a re-analysis of the deposited data

How the results depend on the processing

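All 8 S100 genes kept a log2 fold change below 0 in each of 10 other settings and with each of the 4 libraries left out, but which of them passed depended on the setting. The p-values rest on 2 libraries per group, and with a library left out the lone library is assumed to vary like the other group. The causes of the changes below were not tested, except that a library left out leaves fewer samples and the stricter call asks for a larger fold.

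With no filter on low values, 882 genes passed with higher and 744 with lower expression (1529 and 1393 with the filter). Of the S100 genes 1 passed, *S100a10*, and the others kept their log2 fold changes but not the call: *S100a9* -0.53, *S100a4* -0.33, *S100a6* -0.43, *S100a11* -0.35 and *S100a1* -0.22 (limma, adjusted p from 0.0584 to 0.167). Then 3 partners and 1 upstream gene passed with lower expression, and 0 upstream genes with higher (limma).

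*S100a8* passed with a filter of 1 FPKM in 2 libraries (log2 fold change -0.36), with FPKM divided by their sum (-0.34), by their sum without *S100a8* and *S100a9* (-0.37) and with voom (-0.34). *S100a1* lost the call with FPKM divided by their sum (-0.19) and with voom (-0.20). Upper-quartile scaling left 0 upstream genes higher (limma) and 6 in place of 4 lower, FPKM divided by their sum gave 2 partners and 2 upstream genes higher, and voom 2 upstream genes higher.

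The labels give both groups replicates 1 and 2, but nothing says that a number marks a shared culture day or animal, and there are 2 pairs (deviations of same-numbered libraries correlated at 0.276 across genes). With the replicate number as a block, 4028 genes passed, among them all 2922 that passed without it. The block added *S100a8* to the members that passed (log2 fold change -0.36, adjusted p = 0.0158, limma) and gave 2 partners and 2 upstream genes higher, and 9 partners (6 without it) and 6 upstream genes (4 without it) lower. It changed the call of no other S100 gene.

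With each library left out in turn, 804 to 1005 genes passed with higher and 793 to 1044 with lower expression. Between 2 and 5 of the S100 genes passed with lower expression, 1 to 2 partners with higher and 3 to 5 with lower, and 0 to 1 upstream genes with higher and 2 to 4 with lower (limma). The log2 fold changes ran from -0.47 to -0.25 for *S100a8*, -0.64 to -0.41 for *S100a9*, -0.41 to -0.24 for *S100a4*, -0.54 to -0.32 for *S100a6*, -0.23 to -0.20 for *S100a10*, -0.44 to -0.27 for *S100a11* and -0.27 to -0.16 for *S100a1*.

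Under the stricter call 57 genes were higher and 103 lower, with 0 S100 genes, 0 partners and 0 upstream genes in either direction (limma). No gene of these lists had a log2 fold change beyond 1 at any p, and *S100a9* (-0.53), *S100a4* (-0.33), *S100a6* (-0.43), *S100a10* (-0.21), *S100a11* (-0.35) and *S100a1* (-0.22) stayed within it. The log2 ratio of *S100a9* to *S100a8* and their share of FPKM kept their direction without each library.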

Other observations

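Genes with a mean of 1000 FPKM or more, the class that holds *S100a8*, *S100a9*, *S100a11*, *S100a4* and *S100a6*, numbered 97 among those tested. Of these, 34 passed with higher and 20 with lower expression in G-CSF (limma), which is 35.1% and 20.6% of this class, against 13.1% and 11.9% of all genes tested.

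Genes beside the S100 blocks were examined after the S100 values were seen. Within 200000 bases on either side of the blocks lie 14 other genes of the tables, of which 8 were tested, 1 passed with higher expression, 1 with lower and 6 did not pass (limma), shares near those over all genes tested (13.1% higher and 11.9% lower). *Ilf2*, a double-stranded RNA binding factor, measured 40.4 and 37.9 FPKM in Control and 49.1 and 48.1 FPKM with G-CSF (log2 fold change 0.31, adjusted p = 0.0107, limma), and *Slc27a3*, a fatty acid transport protein gene, measured 5.11 and 3.91 FPKM in Control and 3.08 and 2.55 FPKM with G-CSF (log2 fold change -0.65, adjusted p = 0.0333, limma). *Chtop*, which ends closest to *S100a1*, overlapped between the groups with 40.8 and 42.9 FPKM in Control and 44.1 and 42.3 FPKM with G-CSF.

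*S100pbp*, which encodes an S100-binding protein and is no member of the family, measured 5.63 and 5.27 FPKM in Control and 5.46 and 5.21 FPKM with G-CSF (log2 fold change -0.03, adjusted p = 0.852, limma), and the groups overlapped.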
